A study of Mus musculus with 4 samples.

Results

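The proteasome subunit genes were taken as every array row, other than a control, whose gene name is Psm followed by one of the letters a to g and a number. The rule found 47 genes, read by 58 probes on 67 spots, of 29676 gene names, 39429 probes and 43020 spots. By role they were 8 alpha-ring and 7 constitutive beta-ring subunits of the 20S core, 4 beta subunits that replace the catalytic ones in immune or thymic cells, 6 ATPases and 11 other subunits of the 19S regulatory particle, 4 activators and inhibitors, and 3 assembly chaperones of the 19S and 4 of the 20S. Of these genes, 45 were measured well above background in at least one group and were tested. The exceptions were Psma8, the alpha subunit of germ cells, and Psmb11, the beta subunit of the thymic cortex, which were not well above background on any array. The activator gene Psme2 was not among the rows that the rule matched. Rows named Psme2b lay outside the rule, and their values are given with the activators.

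The arrays measured astrocyte-enriched cultures (AECs) of newborn ICR mouse cerebral cortex, 2 untreated and 2 kept for 15 h in oxygen-glucose deprivation (OGD), meaning medium without glucose in a hypoxic pouch. All 4 cultures came from mixed glia treated with PLX3397 (pexidartinib), an inhibitor of the receptor CSF1R that removes microglia, and the cortices of several pups were pooled to seed them. Each culture was hybridized to 1 single-color array of a slide that held both groups and was scanned once, and no group carried a genetic change. Because this is RNA from whole cultures, fewer cells of a type and less RNA per cell cannot be told apart.

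The proteasome degrades proteins tagged with ubiquitin. Its 20S core is a barrel of stacked alpha and beta rings whose beta subunits Psmb5, Psmb6 and Psmb7 cut chymotrypsin-like, caspase-like and trypsin-like sites, and the 19S particle at its ends binds ubiquitin chains, removes them and unfolds the substrate with a ring of ATPases. Interferon induces Psmb8, Psmb9 and Psmb10, which take the places of Psmb5, Psmb6 and Psmb7 in the immunoproteasome and favor peptides that fit MHC class I. When the proteasome is impaired, the factor NFE2L1 binds antioxidant response elements upstream of subunit genes and raises their transcription together.

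The catalytic subunits and their induced counterparts are compared below, and Psmd4 had the highest fold change. The stretches upstream of these genes are shown, except that of Psmb7. They are the 150 bases before the RefSeq start site, 5′ to 3′ on the gene's strand, on GRCm38.p6, with capitals marking any match to one of the motifs searched: TGACNNNGC (core of the antioxidant response element, ARE), CCAAT, GAAANNGAA (interferon-stimulated response element) and TTCNNNGAA (interferon-gamma-activated site), each on both strands.
Psmb5, chr14:54617996-54618145, minus strand: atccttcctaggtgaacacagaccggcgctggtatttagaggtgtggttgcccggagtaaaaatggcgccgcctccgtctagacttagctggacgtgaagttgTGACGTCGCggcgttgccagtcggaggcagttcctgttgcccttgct
Psmb6, chr11:70525207-70525356, plus strand: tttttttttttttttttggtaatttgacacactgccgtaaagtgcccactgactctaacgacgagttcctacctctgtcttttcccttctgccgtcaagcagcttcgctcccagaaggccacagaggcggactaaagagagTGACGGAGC
Psmb8, chr17:34198045-34198194, plus strand: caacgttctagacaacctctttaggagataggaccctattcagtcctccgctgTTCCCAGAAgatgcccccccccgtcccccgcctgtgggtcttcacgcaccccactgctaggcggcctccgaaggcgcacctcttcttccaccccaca
Psmb9, chr17:34187331-34187480, minus strand: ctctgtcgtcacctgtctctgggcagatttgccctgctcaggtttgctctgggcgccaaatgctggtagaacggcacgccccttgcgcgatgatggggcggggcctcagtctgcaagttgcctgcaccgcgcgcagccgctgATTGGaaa
Psmb10, chr8:105938393-105938542, minus strand: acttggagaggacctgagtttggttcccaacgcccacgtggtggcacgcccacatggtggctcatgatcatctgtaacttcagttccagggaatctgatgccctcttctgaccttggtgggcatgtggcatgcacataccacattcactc
Psmd4, chr3:95042615-95042764, minus strand: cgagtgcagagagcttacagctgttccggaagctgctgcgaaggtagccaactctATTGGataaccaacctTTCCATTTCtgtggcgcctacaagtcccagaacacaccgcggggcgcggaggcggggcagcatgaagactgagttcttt

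In these stretches Psmb5 and Psmb6 held an ARE core, Psmb8 an interferon-gamma-activated site, Psmb9 and Psmd4 a CCAAT box read on the opposite strand, and Psmd4 also an interferon-stimulated element read on the opposite strand. Over windows from 250 bases before to 50 after the start site, the ARE core was present in 6 of the 41 promoters listed for the subunit genes (14.6%) and in 12.4% of all 32851 promoters of the RefSeq table. CCAAT was in 14 of the 41 (34.1%) against 37.4%, the interferon-stimulated element in 7 (17.1%) against 8.56%, and the interferon-gamma-activated site in 3 (7.32%) against 8.30%. The 6 ARE matches lay in Psmb5, Psmb6, Psmc6, Psmd12, Psmd9 and Psme4, whose fold changes ran from 0.62 in Psmb6 to -1.41 in Psme4. The matches are letters only, and binding was not measured.

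Values are given as log2 of the background-corrected signal minus the log2 75th percentile of that array, so that 0 is the brightness of the probe at that percentile, and fold changes are 15 h OGD over untreated on this scale unless another is named. That percentile was a signal of 2135 and 2164 in untreated AECs and of 887 and 776 after OGD, and no spot was saturated. On the unscaled signal all 45 genes were lower on both OGD arrays than on both untreated arrays, as were 90.9% of all 21009 genes tested. Arrays of a group correlated at 0.998 (untreated) and 0.995 (OGD) over the probes. With 2 cultures a group, limma's test shared its error over all probes, a call was an adjusted p under 0.05, and each gene was represented by its brightest probe.

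After 15 h of OGD, 26 of the 45 subunit genes were called higher and 4 lower by limma relative to the 75th percentile, where 37.1% of all genes were called higher and 27.9% lower. Most subunit genes were bright, and the share of all genes called higher rose with brightness, as given below. The 37.1% is therefore not the share among genes of like signal. The median log2 fold change was 0.36 over the 45 genes and 0.16 over all genes. In 42 of the 45 the values of the 2 groups did not overlap, as in 84.8% of all genes, and the exceptions were Psma6, Psmb2 and Psmg2. On this scale changes were small, with 1 gene (Psme4) past 2-fold. The direction depended on the scaling, in that quantile normalization, which gives every array the same distribution, called 7 higher and 13 lower (28.5% and 31.2% of all genes) with a median of -0.14, and scaling to the spiked-in control RNAs called 0 higher and 45 lower (3.85% and 83.4% of all genes) with a median of -0.93. The count called higher fell to 11 without untreated culture 1 and to 8 without untreated culture 2, fits that rest on 3 arrays, and that called lower to 2 and 1. Of the 33 subunit genes whose values were recomputed one by one, Psmb1, Psmb4, Psmb5, Psmb7, Psmb8, Psmb9, Psmc1, Psmd10, Psme1, Psmf1 and Psmg3 lost their call without either untreated array, and Psmb3, Psmb6 and Psmd5 lost it without untreated array 2 (adjusted p = 0.054 to 0.22 in these fits).

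**Figure D1:**
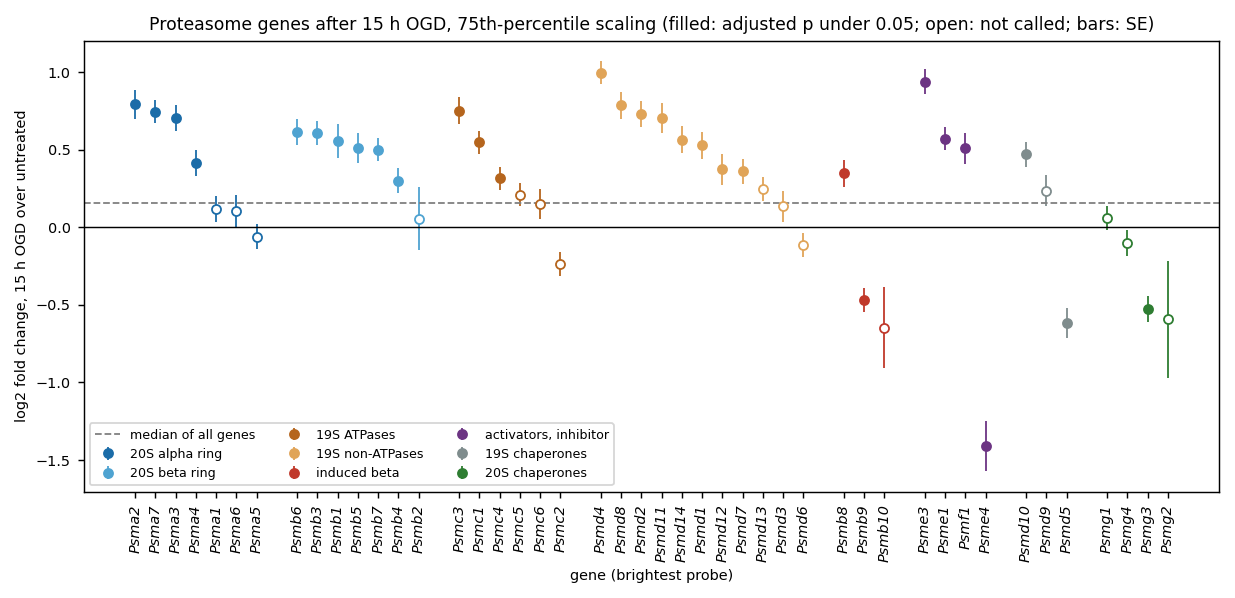
Log2 fold change (y axis, 15 h OGD over untreated, 75th-percentile scaling) of the 45 tested genes, by role (x axis). Filled points were called by limma at an adjusted p under 0.05, open points were not, bars are standard errors, and the dashed line is the median of all genes, 0.16. Most 20S and 19S genes lie above the line, Psmb9, Psmb10 and Psme4 below 0.

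The subunit genes were among the brighter genes of the array, and fold change moved with brightness. Mean signal over the 4 arrays ran from 611 for Psme4 to 70699 for Psmb5, and 12 of the subunit genes were in the brightest 5% of all genes tested. In that 5%, the median fold change of all 1051 genes was 0.80 and 90.0% were called higher, while the 12 subunit genes had a median of 0.61. Of all genes between the 90th and 95th percentile of brightness 69.1% were called higher. The share was 50.9% between the 80th and 90th, 35.0% between the 50th and 80th and 27.1% below the 50th. Among genes between the 90th and 95th percentile of brightness the medians were 0.58 for all and 0.25 for 6 subunit genes, and between the 80th and 90th they were 0.35 and 0.25 (13 subunit genes). Between the 50th and 80th percentile the order was the other way, 0.03 for all and 0.24 for 13 subunit genes. So in the 3 brightest classes the subunit genes had a lower median than other genes of like signal. After quantile normalization the median of all genes lay between -0.04 and 0.003 in each class, and that of the subunit genes was -0.16, -0.34 and -0.12 in the 3 brightest classes, from the top down, and 0.26 between the 50th and 80th percentile, where all genes were at -0.03. The part of brightness in the called changes was not tested.

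**Figure D2:**
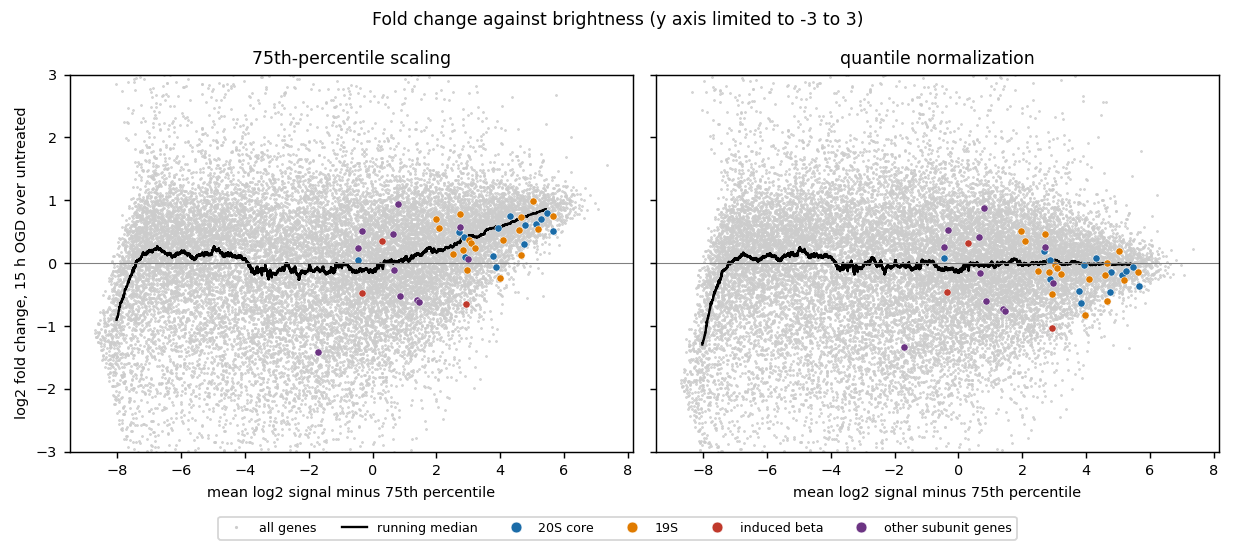
Log2 fold change (y axis) against mean log2 signal minus the 75th percentile (x axis) for all genes tested (grey) and the subunit genes (colors), under 75th-percentile scaling (left) and quantile normalization (right). The black line is the running median of genes ordered by signal, which above an x value of 0 rises with brightness on the left and stays near 0 on the right. On the right most 20S core and 19S genes lie at or below it.

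Of the 14 tested genes of the 20S core, 10 were called higher relative to the 75th percentile and 0 lower (limma, adjusted p under 0.05), with a median log2 fold change of 0.51, but after quantile normalization 0 were higher and 4 lower with a median of -0.13, and all 14 were lower by the spike-in scale. The median over the core genes, relative to the untreated mean of each, was 0.54 and 0.44 on the OGD arrays and 0.04 and -0.04 on the untreated arrays.

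In the alpha ring, which forms the gate of the barrel, 4 of 7 tested genes were called higher. Psma2 was at 5.13 and 5.00 on the untreated arrays and at 5.90 and 5.82 on the OGD arrays, a log2 fold change of 0.79 ± 0.09 (SE, n = 2 per group, limma adjusted p = 0.0039). Psma7 rose by 0.75 ± 0.07 (adjusted p = 0.0028), from 3.94 and 3.95 to 4.68 and 4.69. In both genes the OGD values were well clear of the untreated ones. At the low end, Psma5 was at 3.90 and 3.87 untreated and 3.87 and 3.79 under OGD, a difference of -0.06 that was not called (adjusted p = 0.54). Psma6 overlapped between groups (0.10, adjusted p = 0.42). Under quantile normalization Psma7 and Psma4 were the only alpha genes above 0 (0.08 and 0.06), neither called, and Psma5 (-0.64, adjusted p = 0.0051) and Psma1 (-0.44, adjusted p = 0.015) were called lower.

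In the constitutive beta ring, 6 of 7 genes were called higher. Psmb6, the caspase-like subunit, was at 4.86 and 4.76 untreated and 5.42 and 5.43 under OGD, a log2 fold change of 0.62 ± 0.08 (adjusted p = 0.0058). Psmb3, a structural subunit, was next at 0.61 ± 0.08 (adjusted p = 0.0048). The chymotrypsin-like subunit Psmb5, the brightest gene of the set, rose by 0.51 ± 0.10 (adjusted p = 0.013), from 5.45 and 5.36 to 5.98 and 5.84, while its dimmer probe, 204 bases away, was not called (0.16, adjusted p = 0.16) and the mean over both was 0.33 (adjusted p = 0.031). The trypsin-like subunit Psmb7 rose by 0.50 ± 0.07 (adjusted p = 0.0072), from 2.44 and 2.45 to 2.94 and 2.95, but was 0.19 and not called after quantile normalization (adjusted p = 0.11). Psmb1 rose by 0.56 (adjusted p = 0.016) and Psmb4 by 0.30 (adjusted p = 0.035). The methods' t-test called neither Psmb5 (adjusted p = 0.055) nor Psmb1 (adjusted p = 0.075), and Psmb4 was not called under median scaling (adjusted p = 0.057) or normexp (0.19, adjusted p = 0.083), nor with the percentile taken over probes well above background (0.15, adjusted p = 0.20). The Psmb4 call was also lost with a replicate block (adjusted p = 0.079), with no filter on dim probes (adjusted p = 0.071) and without any 1 array other than OGD array 1 (adjusted p = 0.070 to 0.22). Psmb2 was the dimmest of the ring and its OGD values, -0.17 and -0.68, lay on both sides of the untreated ones, -0.42 and -0.55 (0.06, adjusted p = 0.82). Psmb4 and Psmb5 were called higher relative to the 75th percentile and lower after quantile normalization (-0.45, adjusted p = 0.014, and -0.37, adjusted p = 0.026).

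Of the 17 genes of the 19S particle, 11 were called higher and 0 lower relative to the 75th percentile (limma, adjusted p under 0.05), with a median of 0.37, whereas quantile normalization called 3 higher and 3 lower (median -0.14) and the spike-in scale all 17 lower. Per array the median over the 17 genes was 0.47 and 0.39 under OGD and 0.00029 and -0.00029 untreated.

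The ATPases thread substrates into the core. Of these 6, 3 were called higher, and their median was 0.26. Psmc3 was highest, at 5.33 and 5.21 untreated and 6.04 and 6.00 under OGD (0.75 ± 0.09, adjusted p = 0.0039), and Psmc1 followed at 0.55 ± 0.07 (adjusted p = 0.0058), although its dimmer probe, 232 bases away, was not called and overlapped between groups (0.15, adjusted p = 0.46) and the mean over both was 0.35 (adjusted p = 0.041). Psmc2 was lowest, at 4.10 and 4.09 untreated and 3.90 and 3.82 under OGD (-0.24 ± 0.08, adjusted p = 0.063). Its second probe, which starts 10 bases from the first, was called lower at -0.43 ± 0.11 (adjusted p = 0.029). The first probe was itself called lower after quantile normalization (-0.83, adjusted p = 0.0027), with the percentile over probes well above background (-0.39, adjusted p = 0.017), by normexp (-0.26, adjusted p = 0.031), with only probes well above background on all 4 arrays (adjusted p = 0.047) and with a trended and robust prior (adjusted p = 0.022), and the mean over both probes was called lower too (-0.34, adjusted p = 0.032). Psmc6 was not called (0.15, adjusted p = 0.23). The 6 ATPases form 1 ring in equal numbers, yet their fold changes spread over a range from -0.24 to 0.75.

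Of the 11 non-ATPase subunits 8 were called higher, with a median of 0.53. Psmd4, a receptor for ubiquitin chains, had the highest fold change of all 45 genes. Its probe, at chr3:94836627-94836686 on mm9, read 4.53 and 4.51 untreated and 5.53 and 5.50 under OGD, a log2 fold change of 1.00 ± 0.07 (adjusted p = 0.0017) that was 0.19 after quantile normalization (adjusted p = 0.13) and -0.29 by the spike-in scale (adjusted p = 0.048). Psmd8, a lid subunit, was at 2.39 and 2.27 untreated and 3.14 and 3.10 under OGD (0.79 ± 0.09, adjusted p = 0.0036), and it was also called higher after quantile normalization (0.47, adjusted p = 0.013). The other 19S genes called higher under both scalings were Psmd11, a lid subunit (0.70 and 0.50), and Psmd14, the deubiquitinase of the lid (0.56 and 0.35), both of which are singled out here after their values were seen. At the low end Psmd6 was at 2.98 and 3.03 untreated and 2.91 and 2.87 under OGD (-0.12, adjusted p = 0.25), and Psmd3 was 0.14 higher (adjusted p = 0.29). These 2 lid subunits were called lower after quantile normalization (-0.49 and -0.60), and Psmd6 also with the percentile over probes well above background (-0.27, adjusted p = 0.045).

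**Figure D3:**
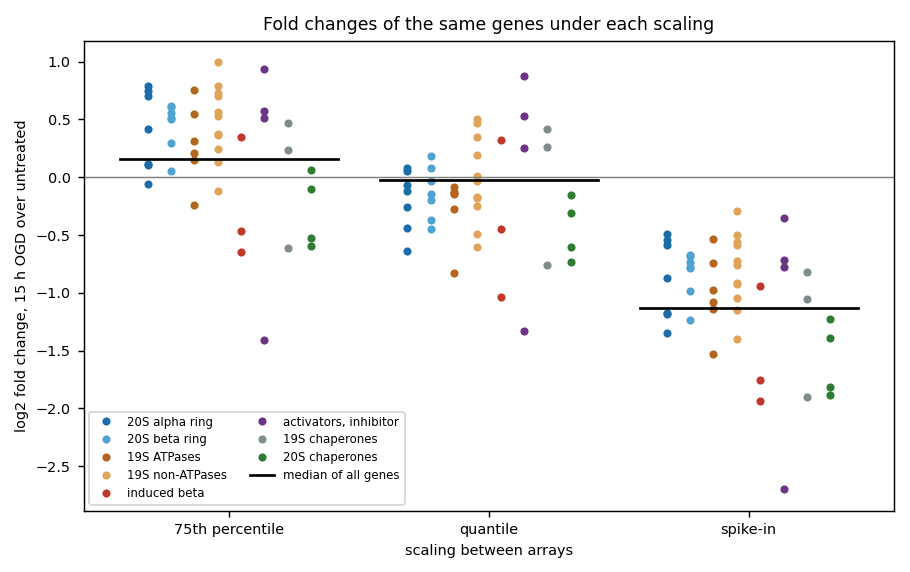
Log2 fold change (y axis, 15 h OGD over untreated) of each tested gene, colored by role, under 3 ways of scaling the arrays to each other (x axis). Black bars are the medians of all genes, 0.16, -0.02 and -1.13. The 20S and 19S genes lie mostly above 0 on the left, around or below 0 in the middle and all below 0 on the right.

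Among the induced beta subunits, Psmb9 and Psmb10 had lower values under OGD while Psmb8 was slightly higher. Psmb9 was read at chr17:34319174-34319233 (mm9) at -0.09 and -0.13 untreated and -0.57 and -0.59 under OGD, and it fell by 0.47 ± 0.08 (limma adjusted p = 0.0091). Quantile normalization gave -0.45 (adjusted p = 0.011). Its second probe was well above background on 1 untreated array and on no OGD array, and was not tested. Psmb10 was at 3.29 and 3.21 untreated and at 2.95 and 2.26 on OGD arrays 1 and 2, which differed from each other more than the untreated arrays did. Its log2 fold change of -0.65 ± 0.26 was not called (adjusted p = 0.097), although it was called lower after quantile normalization (-1.03, adjusted p = 0.023), by normexp (-0.69, adjusted p = 0.019) and without OGD array 1 (-0.99, adjusted p = 0.006). Without OGD array 2 it was -0.30 and not called (adjusted p = 0.063). Psmb8 was at 0.11 and 0.15 untreated and 0.41 and 0.54 under OGD, a rise of 0.35 ± 0.09 (adjusted p = 0.031) that quantile normalization left at 0.32 (adjusted p = 0.039), the methods' t-test did not call (adjusted p = 0.067) and the spike-in scale turned to -0.94 (adjusted p = 0.001). With the percentile taken over probes well above background it was 0.19 and not called (adjusted p = 0.15). The call was also lost with a replicate block (adjusted p = 0.055), with no filter on dim probes (adjusted p = 0.060) and without OGD array 2 (adjusted p = 0.059), untreated array 1 (adjusted p = 0.18) or untreated array 2 (adjusted p = 0.15).

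Each induced subunit was set against the constitutive one it replaces within the same array. A shift shared by all probes of an array cannot change this ratio, but a shift that differs with brightness can. Psmb6 was much brighter than Psmb9 (4.86 and 4.76 against -0.09 and -0.13 untreated), and fold change moved with brightness. The part of brightness in the ratios was not tested. The log2 ratio of Psmb9 to Psmb6, relative to the untreated mean, was 0.03 to either side of 0 in untreated AECs and -1.07 and -1.099 after OGD, a change of -1.08 or 0.472-fold. For Psmb10 to Psmb7 it was 0.05 to either side of 0 untreated and -0.80 and -1.50 after OGD, a change of -1.15 or 0.451-fold. In both pairs the groups were separate, and the exact permutation test over the 4 arrays gave p = 0.333 (two-sided), the smallest it can give with 2 against 2. For Psmb8 to Psmb5 the OGD values were -0.30 and -0.03 against 0.07 to either side of 0, a change of -0.16 with overlapping groups (exact permutation p = 0.667). Quantile normalization moves bright and dim probes differently and gave -0.26 for Psmb9 to Psmb6, -1.22 for Psmb10 to Psmb7 and 0.69 for Psmb8 to Psmb5. The size of the first change and the sign of the last thus depended on it. These were the only 3 ratios between subunits computed, and the tests cannot pass 0.05 before or after adjustment.

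**Figure D4:**
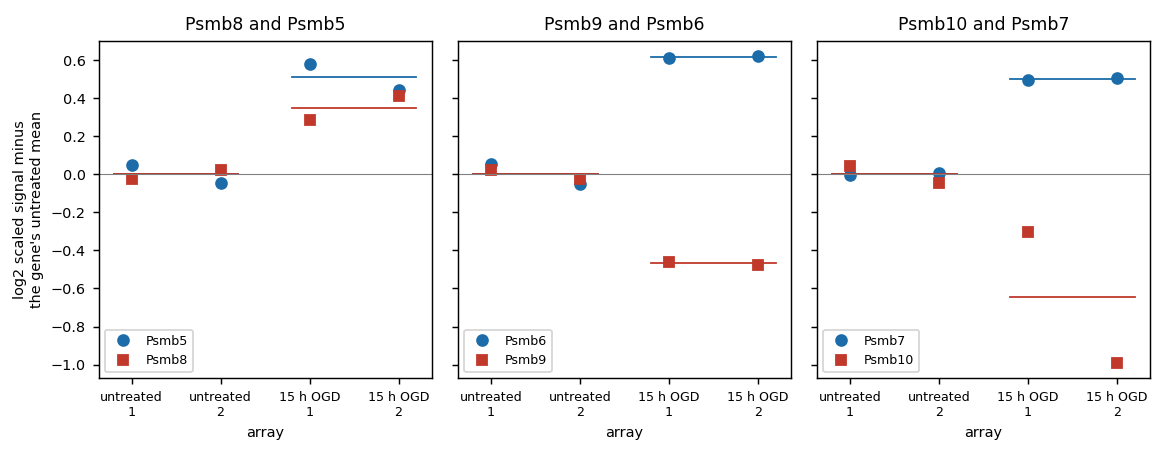
Log2 scaled signal minus the gene's own untreated mean (y axis) on each array (x axis) for each constitutive catalytic subunit (blue circles) and the induced subunit that replaces it (red squares), with lines at the group means. Psmb6 and Psmb9 moved apart on both OGD arrays, Psmb7 and Psmb10 did so with OGD array 2 farther than array 1, and Psmb5 and Psmb8 both lay above 0.

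Psmb9 shares its upstream region with Tap1, which encodes part of the transporter that carries proteasome peptides to MHC class I. In the RefSeq table their start sites face away from each other with 225 bases between them, so the Psmb9 stretch printed above lies in front of both. Tap1 was among 12 genes of interferon response and antigen presentation listed beside the subunits, of which 5 were called higher and 4 lower (limma, adjusted p under 0.05), with a median of 0.10 relative to the 75th percentile and -0.06 after quantile normalization. Tap1 signal was 437 and 512 untreated and 69.2 and 68.2 under OGD, a log2 fold change of -1.41 (adjusted p = 0.002). Nlrc5, an activator of MHC class I and immunosubunit genes, changed by -2.67 (adjusted p = 0.001). The MHC class I gene H2-D1 rose by 1.11 (adjusted p = 0.004), a change that was -0.18 on the spike-in scale.

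Immunosubunits are abundant in microglia and lymphocytes, so the markers of those cells are given beside them. All 10 astrocyte markers were well above background on all 4 arrays, with a summed unscaled signal of 314694 to 355318 untreated and 171675 to 192820 under OGD. Relative to the 75th percentile 5 of the 10 were called higher and 2 lower, with a median log2 fold change of 0.57 that was -0.26 after quantile normalization. Of 12 microglia and macrophage markers 11 were tested, 4 were called higher and 1 lower, and their summed signal was 4560 to 5128 untreated and 5140 to 6071 under OGD. Most of the OGD sum was Cd68, at 1157 and 1213 untreated and 4301 and 3778 under OGD. Relative to the 75th percentile Csf1r (1.14), Aif1 (1.03) and C1qb (0.70) were also called higher, and Tmem119 (-0.88) was called lower. Cx3cr1 and Ptprc were not well above background on the OGD arrays. Of 6 lymphocyte markers 3 were tested, 2 were called higher and 0 lower, Cd3d and Ms4a1 were not well above background on any array, and the summed signal of the list was 788 to 835 untreated and 469 to 520 under OGD. Of the 10 oligodendrocyte lineage markers 4 were called higher and 4 lower, of 7 neuronal markers 3 and 2, of 5 tested fibroblast and meningeal markers 0 and 2, and of 4 tested endothelial markers 0 and 1. The part of these cells in the subunit values was not tested.

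Of the 4 activators and inhibitors, 3 were called higher and 1 lower relative to the 75th percentile (limma, adjusted p under 0.05). Psme3, a nuclear activator that opens the core without ubiquitin, was at 0.35 and 0.31 untreated and 1.23 and 1.31 under OGD, a log2 fold change of 0.94 ± 0.08 (adjusted p = 0.0021). It was also higher after quantile normalization (0.87, adjusted p = 0.0025), but on the spike-in scale it was -0.35 (adjusted p = 0.025). Psme1, an interferon-induced activator subunit, rose by 0.57 ± 0.08 (adjusted p = 0.0053), from 2.42 and 2.46 to 3.02 and 3.01, and Psmf1, an inhibitor of the core in vitro, by 0.51 ± 0.10 (adjusted p = 0.016), from -0.68 and -0.48 to -0.08 and -0.06. After quantile normalization Psme1 was 0.25 and not called (adjusted p = 0.057). The methods' t-test did not call Psmf1 (adjusted p = 0.067), and on the spike-in scale both genes were lower (-0.72 and -0.78). Of the Psme2b probes, outside the rule, the brightest was not called (0.04, limma adjusted p = 0.91). A dimmer one was called higher (0.26, adjusted p = 0.045), and another was not well above background on any array.

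Psme4, which encodes a large nuclear activator, was the only gene whose brightest probe was past 2-fold, and its 2 probes differed. The brighter probe, at chr11:30756055-30756114 (mm9), was at -1.07 and -0.95 untreated and -2.61 and -2.23 under OGD, and it fell by 1.41 ± 0.16 on the log2 scale (adjusted p = 0.0038). The dimmer probe, at chr11:30710953-30711012, was at -2.31 and -2.32 untreated and -2.23 and -1.85 under OGD (0.28 ± 0.15, adjusted p = 0.19). The mean over both probes was -0.57 (adjusted p = 0.038), which is not past 2-fold. All values of both probes were well above background. Within each array the ratio of the upstream to the downstream probe was 1.69 and 1.68 above its untreated mean on the OGD arrays and 0.06 to either side of it on the untreated ones.

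The same comparison could be made in 10 genes with 2 tested probes each. None had its probes called in opposite directions, and in 4 the 2 fold changes had opposite signs (Psme4, Psmd9, Psmd10 and Psmg1). In Psmd9, with probes 6643 bases apart, the upstream probe was not called (0.24, adjusted p = 0.10) and the downstream one was called lower (-0.49, adjusted p = 0.0099), a change of the within-array ratio of 0.72. In Psmd10 the upstream probe spans an intron, and it was called higher (0.47, adjusted p = 0.01) where the downstream one was not called (-0.36, adjusted p = 0.068), a change of 0.83, and the mean over both probes was 0.06 and not called (adjusted p = 0.60). In Psmd12, with probes 11871 bases apart, the change was 0.16. The upstream probe was thus the higher one in 3 of 3 genes whose probes lay over 2000 bases apart on the genome, and in 3 of 7 with nearer probes, where the changes ran from -0.40 (Psmc1) to 0.83 (Psmd10). These counts were made after the Psme4 values were seen, and each exact permutation test gave p = 0.333, the smallest possible.

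**Figure D5:**
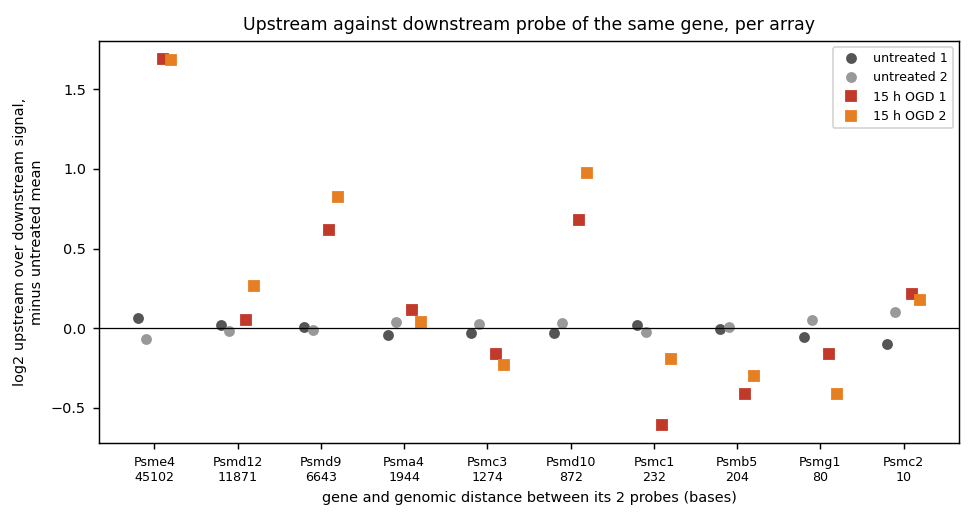
Log2 ratio of the upstream to the downstream probe of each gene with 2 tested probes, minus its mean on the untreated arrays (y axis), with the genomic distance between the probes in bases (x axis). Grey circles are untreated and red or orange squares OGD arrays. Psme4, Psmd9 and Psmd10 lie between 0.62 and 1.69 on the OGD arrays.

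The assembly chaperones had mixed values, with 1 of 7 called higher and 2 lower (limma, adjusted p under 0.05) and a median of -0.10. None of the 4 chaperones of the alpha ring was called higher, and all 4 were below 0 after quantile normalization. Psmg3 was at 1.07 and 1.17 untreated and 0.61 and 0.57 under OGD and fell by 0.53 ± 0.08 (adjusted p = 0.0086). Its partner Psmg4 was not called (-0.10, adjusted p = 0.34). The other pair, Psmg1 (0.06, adjusted p = 0.51) and Psmg2 (-0.59, adjusted p = 0.23), was not called either. Psmg2 was at 1.81 and 1.60 untreated and at 1.61 and 0.61 on OGD arrays 1 and 2, so that OGD array 1 lay inside the untreated values. Without OGD array 1 it was called lower (-1.09, adjusted p = 0.0097), and without OGD array 2 it was -0.09 (adjusted p = 0.57). Of the 19S chaperones, Psmd5 fell by 0.61 ± 0.10 (adjusted p = 0.0084), from 1.70 and 1.83 to 1.21 and 1.09, and Psmd10 and Psmd9 had the probe differences given above. Psmd5, Psmg3, Psmb9 and Psme4 were the 4 genes called lower, and all 4 were also called lower after quantile normalization.

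Of the 26 genes called higher relative to the 75th percentile, 7 were also called higher after quantile normalization, namely Psmb8, Psmd8, Psmd10, Psmd11, Psmd14, Psme3 and Psmf1. A further 17 were not called and 2 (Psmb4 and Psmb5) were called lower.

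Other parts and partners of the proteasome were examined as a list of 15 genes, of which 11 were on the array. Of these, 7 were called higher and 1 lower (limma, adjusted p under 0.05), with a median of 0.67 relative to the 75th percentile and 0.17 after quantile normalization. Ecpas, a scaffold that binds the 19S particle, was among the dimmest, with a signal of 200 and 197 untreated and 166 and 285 under OGD (1.51 ± 0.36, adjusted p = 0.026), and its OGD arrays lay on both sides of the untreated ones before scaling. Adrm1, a ubiquitin receptor of the 19S particle beside Psmd4, was at 6998 and 4692 untreated and 1128 and 988 under OGD (-1.07 ± 0.23, adjusted p = 0.019). Psmd4 and Adrm1 therefore had opposite signs on the 75th-percentile and quantile scales. After quantile normalization Adrm1 was -1.15, while Psmd4 was 0.19 and not called (limma adjusted p = 0.13). Both genes were lower on the spike-in scale (-2.36 for Adrm1).

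Of 9 regulators of subunit transcription, 4 were called higher and 1 lower, with a median of 0.17. Over all genes 37.1% were called higher and 27.9% lower, with a median of 0.16, shares that stand beside every list of genes here. Nfe2l1, the main inducer of subunit genes, had a signal of 1101 and 1256 untreated and 1050 and 894 under OGD, a log2 fold change of 1.09 ± 0.10 (limma adjusted p = 0.002) that was 1.11 after quantile normalization and -0.19 on the spike-in scale. Ddi2, the protease that cleaves NFE2L1 into its active form, was at 579 and 586 untreated and 603 and 536 under OGD (1.34 ± 0.07, adjusted p = 0.001). Its unscaled signal thus held its level where most genes fell. Ngly1, the glycanase that NFE2L1 needs for activation, went the other way, from 388 and 399 to 50.9 and 43.3 (-1.69 ± 0.08, adjusted p = 0.001). Nfe2l2, a related factor of the antioxidant response, was not called (0.17, adjusted p = 0.26), nor was Nfe2l3 (-0.08, adjusted p = 0.81). Stat3 rose by 0.79 (adjusted p = 0.008), and of the CCAAT-binding subunits Nfyb rose by 0.68 (adjusted p = 0.007) while Nfya (0.04, adjusted p = 0.78) and Nfyc (-0.16, adjusted p = 0.18) were not called. On the spike-in scale Stat3 was -0.50 and Nfyb -0.61.

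Among 15 measured genes of ubiquitin, its activating enzymes and the shuttles that carry substrates to the proteasome, 11 were called higher and 1 lower (limma, adjusted p under 0.05), with a median of 0.73 relative to the 75th percentile, 0.14 after quantile normalization and -0.56 on the spike-in scale. The shuttle Rad23b was highest, with a signal of 5968 and 6405 untreated and 7742 and 7293 under OGD (1.65 ± 0.09, adjusted p = 0.001), and it was above 0 on all 3 scales (1.38 by quantile and 0.37 by spike-in). Ubqln1, also a shuttle, rose by 1.32 ± 0.08 (adjusted p = 0.001) and was 0.03 on the spike-in scale. The polyubiquitin gene Ubb rose by 1.17 ± 0.09 (adjusted p = 0.002) and the ubiquitin-ribosomal fusion gene Rps27a by 1.01 ± 0.15 (adjusted p = 0.007), and these bright genes were at 0.17 and 0.05 after quantile normalization.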

How the data were processed

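Per the labels and the methods, total RNA of 4 cultures was amplified, labeled with Cy3 and hybridized to single-color mouse arrays, and images were processed with Agilent Feature Extraction 11.5.1.1 (version per the labels). The intensity values the authors deposited are background-corrected signals per spot, not normalized between arrays, with flags for spots well above background, outlying or saturated, and a series-wide table repeats the same values. Probe positions are those of the array design on mm9, given per the file headers, and exon or UTR annotation on that build was not used here. All 47 symbols were found in the RefSeq table (GRCm38.p6), which gave 41 promoters for 39 of the genes.

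Control and outlying spots were left out, log2 signals of the spots of a probe averaged, and the 75th percentile over probes subtracted, as in the methods. Probes well above background (at least 0.5 of their spots) on both arrays of a group and measured on all 4 arrays were tested (28163), with limma 3.58.1 (R 4.3.3, lmFit and eBayes) and Benjamini-Hochberg adjustment over all of them. Alternatives were median, spike-in and quantile scaling, the percentile over well-measured probes, normexp (offset 50), other filters, outlying spots kept, the series table, the mean over a gene's probes, the methods' t-test, a trended and robust prior, a replicate block, and each array left out. Spike-in scaling used 9 of 10 probes, whose shifts between groups ran from -0.75 to 0.28.

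The subunit genes, the other lists and the motifs were chosen with earlier results of these data known. Named were the catalytic and induced subunits, activators, chaperones and untested genes, in each other role the 2 highest and 2 lowest fold changes, the regulators, and up to 4 called genes past 1 (log2) in each other list. Some genes of these lists are not reported here by name. The arrays' number limits the precision. Wells were seeded from independent cultures, and p-values measure the spread between these samples.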

Additional observations from a re-analysis of the deposited data

How the results depend on the processing

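With 2 arrays a group, the limits are the number of arrays and the scaling between them, since all 45 genes were well above background on all 4 arrays. With an array left out, the lone array of its group was assumed to vary like the other group. For 33 named genes, 17 alternatives gave 561 values, of which 453 kept direction and side of the threshold, 44 lost and 19 gained a call, and 45 turned sign. The cause was not tested. The subunit genes called higher were 26, 7 by quantile and 0 by spike-in scaling, and 8 to 25 with an array left out. Those called lower were 4, 13 and 45, and 1 to 6. Over all probes 18334 were called, and 10753 to 19152 with an array left out. The median log2 fold change of the 20S core minus that of all probes was 0.33, but -0.14 by quantile, -0.12 by normexp and 0.088 without a filter on dim probes. The median of all genes, 0.16, was 0.51 by normexp and 0.0073 with the percentile over probes well above background. The median of the 19S genes minus that of all probes was 0.20, and 0.16 to 0.30 with an array left out. This difference was -0.15 by quantile, -0.24 by normexp and -0.044 without a filter on dim probes. The change of the ratio Psmb8 to Psmb5 was -0.16, but 0.69 by quantile and 0.014 with the mean over a gene's probes. The replicate numbers are not said to pair the arrays. The correlation of deviations was -0.06, which with 2 arrays a group cannot exclude a pairing. With a replicate block 17198 probes were called, with 22 subunit genes higher and 4 lower.

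By spike-in scaling the log2 fold change turned to -0.49 in Psma2, -1.18 in Psma6, -0.54 in Psma7, -0.73 in Psmb1, -1.23 in Psmb2, -0.68 in Psmb3, -0.99 in Psmb4, -0.78 in Psmb5, -0.67 in Psmb6, -0.79 in Psmb7, -0.94 in Psmb8, -0.74 in Psmc1, -0.54 in Psmc3, -1.14 in Psmc6, -0.82 in Psmd10, -1.15 in Psmd3, -0.29 in Psmd4, -0.50 in Psmd8, -1.05 in Psmd9, -0.72 in Psme1, -0.35 in Psme3, -0.78 in Psmf1 and -1.23 in Psmg1. By quantile normalization it turned to -0.065 in Psma2, -0.26 in Psma6, -0.028 in Psmb1, -0.14 in Psmb3, -0.45 in Psmb4, -0.37 in Psmb5, -0.19 in Psmb6, -0.27 in Psmc1, -0.14 in Psmc3, -0.12 in Psmc6, -0.60 in Psmd3 and -0.31 in Psmg1. With the percentile over probes well above background it was -0.049 in Psma6, -0.10 in Psmb2, -0.0026 in Psmc6, -0.017 in Psmd3 and -0.092 in Psmg1. The mean over a gene's probes gave -0.12 in Psmd9 and -0.082 in Psmg1, and normexp -0.0043 in Psmg1. With an array left out Psmb2 ran from -0.20 (without OGD array 1) to 0.31 (without OGD array 2), and was -0.0080 without untreated array 2.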
